A study of Homo sapiens with 8 samples.

Results

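Protein phosphatase 2A (PP2A) is a family of serine/threonine phosphatases that work as complexes of a catalytic subunit (PPP2CA or PPP2CB), a scaffold (PPP2R1A or PPP2R1B) and an exchangeable regulatory subunit. The regulatory subunit brings the complex to its substrates, and the families described here are B55 (PPP2R2A to PPP2R2D) and B56 (the PPP2R5 genes). PP2A removes phosphate from many kinases downstream of growth factor receptors, AKT and ERK pathway proteins among them, and the B55 complexes also act at the exit from mitosis. Out of 20046 genes that had a probe with a single symbol, 10 were taken by family name, with earlier results of these data known. The reason was that the B55 subunit PPP2R2C stood high in all 3 drug-resistant sublines of the series. These 10 genes had 23 probes of the 48107 on the array, and none was left out for low signal.

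Gene expression was measured on 8 Illumina HumanHT-12 arrays in A204, an established line of human malignant rhabdoid tumor (MRT) cells without the SWI/SNF component SMARCB1. Resistant sublines named DasR (dasatinib), PazR (pazopanib) and SunR (sunitinib) were each grown in 5 µM of their own drug and gave 1 array each. They had been selected from A204 with drug raised in steps from 500 nM to 5 µM over 6 weeks, and the sources do not say whether a subline came from a single cell. Parental A204 cells were given 5 µM of dasatinib, pazopanib or sunitinib, also with 1 array per drug. Parental cells without drug gave 2 arrays, and whether these cells had vehicle was not settled by the labels, which say no drug, and the paper, which speaks of a DMSO control. All 3 drugs are tyrosine kinase inhibitors (TKIs) whose targets include PDGFRα. Separate cultures for the arrays of a group are not stated in the labels, so that p-values measure only the spread between these arrays, and the spread within a drug group also holds the differences between drugs.

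Signals are log2 intensities after quantile normalization, with a median of 6.67 in every array. Precision is limited by the small number of arrays. The 2 SMARCB1 probes, for a gene these cells have lost, read 6.64 to 6.93, and this range serves as a working background. The 2 probes of VIM, the mesenchymal filament vimentin, read 13.85 to 14.67, while all 16 probes of muscle, leukocyte, endothelial and epithelial markers stayed at or under 6.89. The untreated arrays were not alike: replicate 1 correlated with the sublines at 0.982 and with treated parental cells at 0.97 over all probes, and replicate 2 at 0.969 and 0.979. The labels name no batch. Among probes called between sublines and treated parental cells the difference of untreated replicates 1 and 2 had the sign of the call in 86.0%, where all probes gave 60.0%, so the untreated values or their difference are given beside each call below. Its part in the results was not tested.

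PPP2R2C encodes B55 gamma, a regulatory subunit best known from brain. With its brightest probe (ILMN_2401344), PPP2R2C read 9.60 in DasR, 9.36 in PazR and 9.75 in SunR, against 6.88 in parental cells in dasatinib, 6.80 in pazopanib and 6.98 in sunitinib. Untreated parental cells gave 7.17 and 6.90. All 3 sublines stood far above all 5 parental arrays, and 4 of the parental signals lay near the top of the SMARCB1 range or inside it. The mean was 9.57 ± 0.20 in the sublines (SD, n = 3), 6.89 ± 0.09 in treated parental cells (SD, n = 3) and 7.03 ± 0.19 in untreated parental cells (SD, n = 2). The difference from treated parental cells was 2.68 on the log2 scale, and 2.53 from untreated cells. Since the parental signals lay in or near the background range, the size of the change is not well measured by either difference. Because the gene was chosen for this rise, these differences are a description and carry no test.

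In each drug the subline read higher than the parental cells, and whether the drugs differed was not tested. DasR stood 2.73 above parental cells in dasatinib, PazR 2.56 above those in pazopanib and SunR 2.77 above those in sunitinib. When each array was left out in turn, the difference from treated parental cells ranged from 2.59 to 2.79. The lowest subline exceeded the highest parental array by 2.19, rank 3 of the 48107 probes for such a gap. Among probes with a gene name only AKR1C4, an aldo-keto reductase of steroid metabolism, had a larger one (2.39), and a gap over 1 was seen for 23 probes (0.0478%). The gene was chosen for this rise, so the rank, the share and the range with arrays left out are a description and not support. Between treated and untreated parental cells this probe differed by -0.15 ± 0.18 (SE), which did not pass (adjusted p = 0.794, limma). The other PPP2R2C probes gave -0.11 (ILMN_1680507), -0.18 (ILMN_2291152) and -0.13 (ILMN_1661129), and none passed. The groups did not overlap for ILMN_2291152 and ILMN_1661129. With both parental groups in or near the background range a fall could hardly be seen, so these values do not show whether the drugs lowered PPP2R2C.

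The 4 PPP2R2C probes did not read alike. A second probe (ILMN_1680507) gave 8.58 in DasR, 8.35 in PazR and 8.63 in SunR, against 6.59, 6.64 and 6.52 in parental cells in dasatinib, pazopanib and sunitinib and 6.78 and 6.61 in untreated cells. It moved with the brightest probe over the 8 arrays (r = 0.998), with sublines 1.94 above treated parental cells. The other two (ILMN_2291152 and ILMN_1661129) stayed at 6.50 to 6.74 and 6.50 to 6.58 in the sublines, against 6.55 to 6.63 and 6.34 to 6.54 in treated parental cells and 6.74 to 6.77 and 6.56 to 6.61 in untreated cells. These signals lay at or under the SMARCB1 range in every array. The annotation ties ILMN_2401344, ILMN_1680507 and ILMN_2291152 to one RefSeq transcript (NM_181876) and ILMN_1661129 to another (NM_020416), so probes for the same transcript differed.

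**Figure D1:**
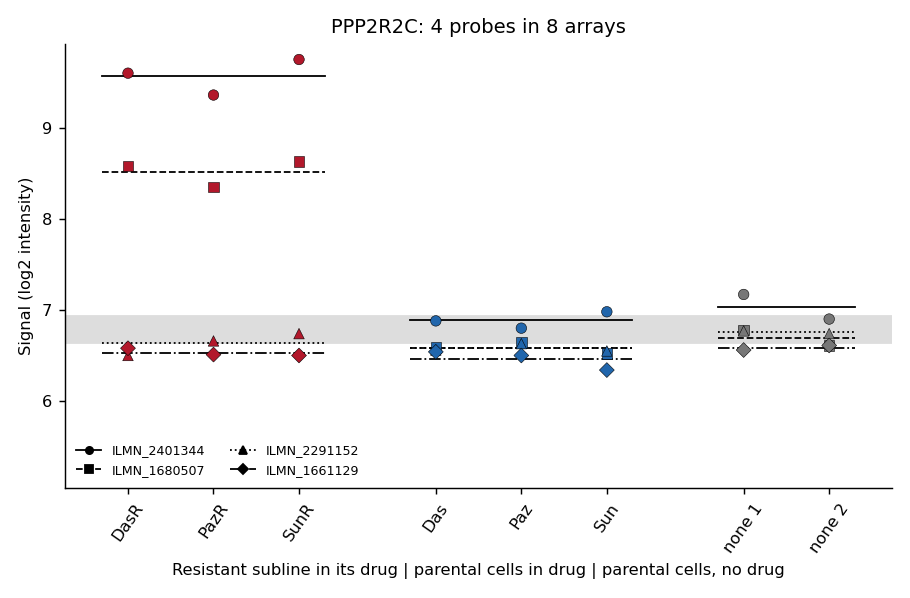
PPP2R2C signal (log2 intensity, vertical axis) of 4 probes in each of the 8 arrays, with resistant sublines in red, treated parental cells in blue and untreated parental cells in gray; short lines are group means and the gray band is the range of the SMARCB1 probes. With ILMN_2401344 the sublines read 9.36 to 9.75 and every parental array 7.17 or less, while 2 probes stayed at background in all arrays.

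RefSeq (GRCh38.p14) lists 5 transcription starts for PPP2R2C, all on the minus strand of chromosome 4, and expression arrays do not tell which one was used. They differ widely in CG dinucleotides, the sites of DNA methylation, within the window of 250 bases before to 50 bases after the start. The first start holds 59 CG (the 99.9 percentile of 35116 promoters, whose median is 14) and the third 38 (the 90.1 percentile), against 12, 3 and 1 at the others. Both CG-rich windows are shown because they belong to the member followed for its rise, with each CG in capitals. Neither window holds a CCAAT box (CCAAT), which is in 34.6% of promoters, and GC boxes (GGGCGG), which are in 45.0%, occur 7 times in the first window and 2 times in the third. Both strands were searched for these letters.
PPP2R2C start 1, chr4:6563750-6564049, minus strand: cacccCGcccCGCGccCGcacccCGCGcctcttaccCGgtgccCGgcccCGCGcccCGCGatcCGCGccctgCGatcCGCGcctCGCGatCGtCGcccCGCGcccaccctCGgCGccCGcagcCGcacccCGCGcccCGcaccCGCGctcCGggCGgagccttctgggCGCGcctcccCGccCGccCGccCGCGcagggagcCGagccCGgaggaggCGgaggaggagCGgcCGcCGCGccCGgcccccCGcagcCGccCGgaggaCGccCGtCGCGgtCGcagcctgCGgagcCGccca
PPP2R2C start 3, chr4:6472565-6472864, minus strand: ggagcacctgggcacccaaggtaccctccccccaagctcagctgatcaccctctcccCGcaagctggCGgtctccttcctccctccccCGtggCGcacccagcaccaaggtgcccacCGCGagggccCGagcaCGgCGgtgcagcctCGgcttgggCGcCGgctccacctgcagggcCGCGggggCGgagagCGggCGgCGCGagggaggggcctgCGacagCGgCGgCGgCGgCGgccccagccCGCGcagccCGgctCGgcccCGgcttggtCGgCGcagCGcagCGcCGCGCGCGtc

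Among the other 9 members, 7 of 19 probes from 5 genes passed limma at an adjusted p of 0.05 between resistant sublines and treated parental cells, with PPP2CA, PPP2R1B, PPP2R2D and PPP2R5C higher and PPP2R1A lower. Of all probes 6.04% passed in this comparison, 2.71% higher and 3.33% lower, and of probes with a mean signal above the SMARCB1 range 14.7% did, where the other 9 members had 9 probes, 5 of them passing. The groups did not overlap for 9 of the 19 probes, against 25.6% of all probes. The members were chosen with earlier results of these data known, so these shares are a description and not a test of the family. The B56 genes PPP2R5B, PPP2R5D and PPP2R5E were placed among the other subunits below, and none of their probes passed. The median difference over the 19 probes was 0.01, against 0.0 over all probes. In all 7 passing probes untreated replicate 1 differed from replicate 2 in the direction of the call. Against untreated parental cells no member probe passed (2 had an unadjusted p under 0.05 in limma, and the methods' t-test gave 1 before adjustment and 0 after), where 0.276% of all probes did. The groups did not overlap for 5 of the 19 probes there, a share near the 23.4% of all probes.

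PPP2CA encodes the main catalytic subunit, C alpha. Its brighter probe (ILMN_1722858) read 12.66 in DasR, 12.58 in PazR and 12.37 in SunR, against 12.04 in parental cells in dasatinib, 11.77 in pazopanib and 11.96 in sunitinib, and 12.66 and 12.34 in untreated cells. Sublines and treated parental cells did not overlap, whereas the untreated arrays lay within the range of the sublines or just under it. The difference from treated parental cells was 0.62 ± 0.16 (SE, adjusted p = 0.043, limma). The second probe (ILMN_2196097) gave 10.53, 10.29 and 10.54 in DasR, PazR and SunR, against 9.34, 9.43 and 9.77 in parental cells in dasatinib, pazopanib and sunitinib and 10.44 and 10.14 without drug. It differed in the same direction, by 0.94 ± 0.22 (SE, adjusted p = 0.0322, limma). Both calls rested on few arrays: the first was lost without DasR, PazR or parental cells in dasatinib or pazopanib (largest adjusted p = 0.165), and the second held only without parental cells in sunitinib (otherwise up to 0.154). Treated parental cells stood below untreated cells by 0.58 and 0.78 with the 2 probes, without overlap, but neither passed (adjusted p = 0.224 and 0.234, limma), and no probe of the 10 members did (5 had an unadjusted p under 0.05 in limma and 6 in the methods' t-test, 0 after adjustment) where 0.00416% of all probes passed. Groups did not overlap for 11 of the 23 member probes in that comparison, 9 of them lower, against 28.7% of all probes (14.6% lower). PPP2CB, the closely related C beta, stayed near background with 7.25, 7.03 and 7.18 in the sublines, against 6.73 to 7.05 in treated and 6.73 and 7.07 in untreated parental cells, and its difference of 0.27 from treated cells did not pass (adjusted p = 0.19, limma).

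The scaffold genes differed in opposite directions. PPP2R1A, the A alpha scaffold on which most complexes are built, read 10.83 in DasR, 10.94 in PazR and 10.67 in SunR, against 12.18 in parental cells in dasatinib, 12.22 in pazopanib and 11.43 in sunitinib, and 11.09 and 11.67 in untreated cells. Every subline lay under every parental array. The sublines were 1.13 ± 0.24 (SE) lower than treated parental cells (adjusted p = 0.0186, limma) and 0.57 ± 0.28 lower than untreated cells (adjusted p = 0.709). The first call was lost without PazR (adjusted p = 0.0528) or without parental cells in dasatinib (0.104) or pazopanib (0.11), and untreated replicate 1 stood 0.57 under replicate 2.

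PPP2R1B encodes the A beta scaffold. With ILMN_1779841 it read 7.33 in DasR, 7.24 in PazR and 7.18 in SunR, against 6.65, 6.51 and 6.57 in parental cells in dasatinib, pazopanib and sunitinib and 6.89 and 6.86 in untreated cells. The sublines were above both parental groups, which lay within or under the SMARCB1 range. The difference from treated parental cells was 0.67 ± 0.09 (SE, adjusted p = 0.00184, limma), and it was the only member call to hold without each of the 6 arrays in turn (largest adjusted p = 0.0189). The untreated replicates differed by 0.03 with this probe. Its difference of 0.37 ± 0.10 from untreated cells did not pass limma (adjusted p = 0.291). A brighter probe (ILMN_1704656) gave 8.08, 7.96 and 7.71 in DasR, PazR and SunR, against 7.42, 6.99 and 7.19 in parental cells in the same drugs and 7.80 and 7.43 without drug, a difference of 0.72 ± 0.15 from treated cells (adjusted p = 0.0207, limma). That call was lost without DasR (0.0547), PazR (0.0728) or parental cells in pazopanib (0.121), and the remaining probe stayed at background with a difference of 0.08.

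**Figure D2:**
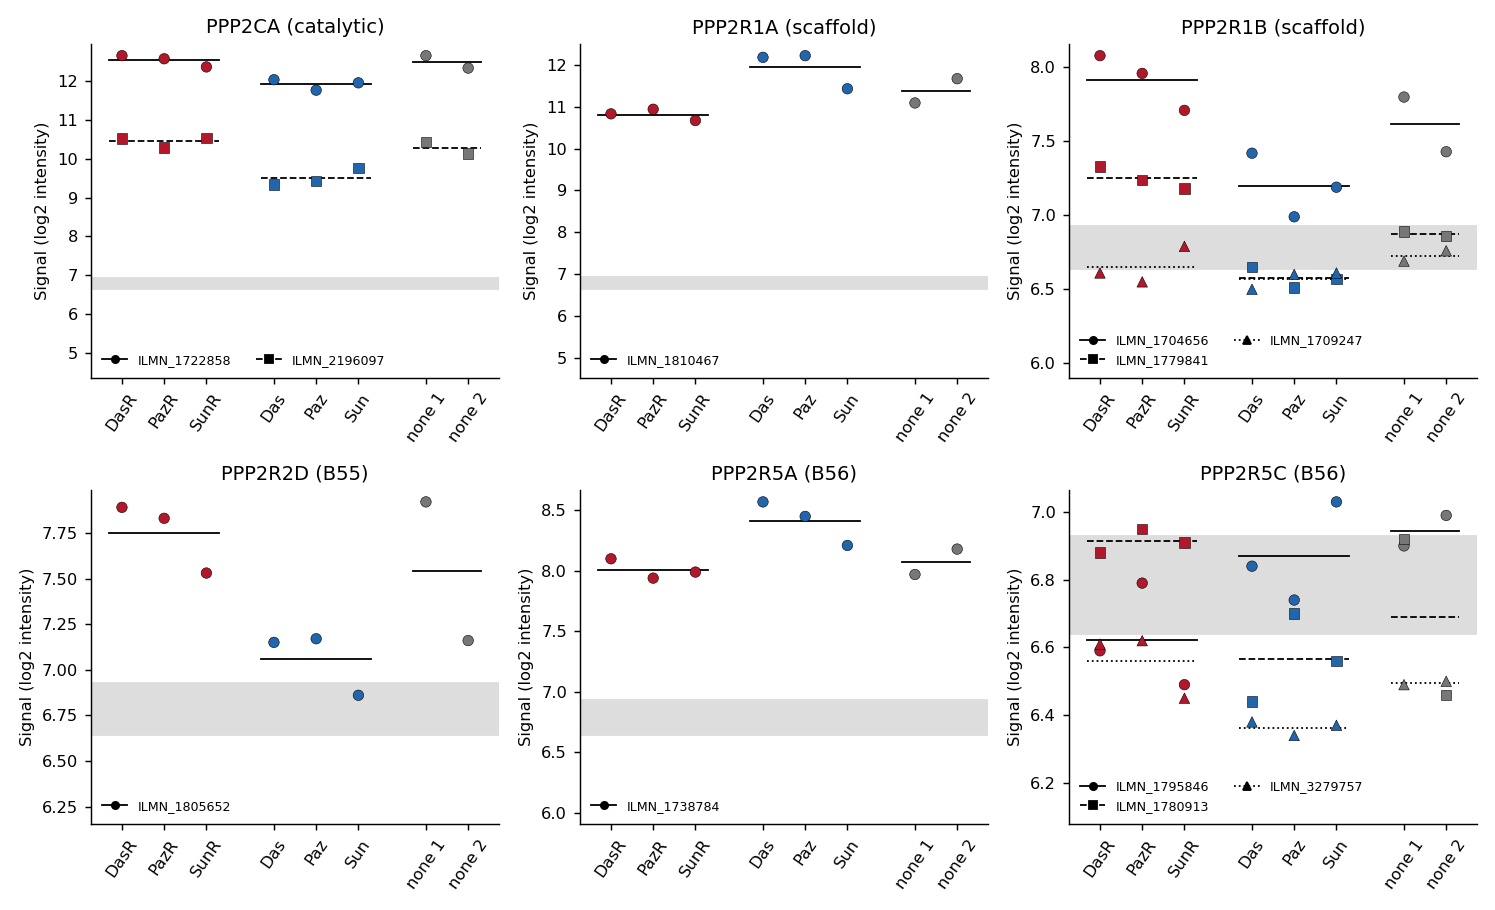
Signal (log2 intensity, vertical axes) of 6 members in each array, with resistant sublines in red, treated parental cells in blue and untreated parental cells in gray; marker shapes are probes, short lines group means and the gray band the range of the SMARCB1 probes. PPP2CA and PPP2R2D read higher in the sublines than in treated parental cells, as did PPP2R1B except with ILMN_1709247, and PPP2R1A read lower. Untreated replicate 1 of PPP2R2D (7.92) lay with the sublines and replicate 2 (7.16) with treated parental cells.

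Among the other B55 subunits, PPP2R2D had a passing probe and PPP2R2A and PPP2R2B had none. PPP2R2A (B55 alpha, a widely expressed form) read 9.50, 9.29 and 9.49 in DasR, PazR and SunR, against 9.60, 9.56 and 9.47 in parental cells in dasatinib, pazopanib and sunitinib and 9.25 and 9.23 without drug. Sublines and treated cells overlapped, with a difference of -0.12 ± 0.21 (SE, adjusted p = 0.805, limma). Both untreated arrays lay under all of these, with differences of 0.19 for the sublines and 0.31 for treated cells that did not pass (adjusted p = 0.896 and 0.624, limma). PPP2R2B (B55 beta, like B55 gamma best known from brain) was measured above background by 1 of its 6 probes (ILMN_2298365), with 8.78, 8.78 and 9.25 in DasR, PazR and SunR, against 8.84, 8.96 and 9.24 in parental cells in the same drugs and 8.88 and 8.96 without drug. The highest signals of this probe were those of SunR and of parental cells in sunitinib, and the sublines differed from treated cells by -0.08 ± 0.22 (SE, adjusted p = 0.891, limma). The other 5 probes read 6.25 to 6.73 in all arrays.

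PPP2R2D encodes B55 delta, a form that dephosphorylates mitotic substrates and is blocked by the inhibitors ENSA and ARPP19. It read 7.89 in DasR, 7.83 in PazR and 7.53 in SunR, against 7.15 in parental cells in dasatinib, 7.17 in pazopanib and 6.86 in sunitinib. The untreated arrays were split, with 7.92 in replicate 1 among the sublines and 7.16 in replicate 2 among the treated cells. The difference from treated parental cells was 0.69 ± 0.14 (SE, adjusted p = 0.0164, limma), smaller than the 0.76 between the untreated replicates. It was lost without PazR (0.0622) or without parental cells in dasatinib (0.055) or pazopanib (0.0534). Against untreated cells the sublines differed by 0.21 ± 0.21 (adjusted p = 0.877).

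Promoters were matched in RefSeq for 8 of the 10 members, 18 windows in all. A full cAMP response element (TGACGTCA, both strands), the site bound by CREB and ATF factors, is in 1.85% of all promoters and was found in windows of PPP2CA and PPP2R2D, which both read higher in the sublines than in treated parental cells. It starts 29 bases before the second listed start of PPP2CA and 51 bases before the start of PPP2R2D. No other window of the 8 members holds it. Those without it include PPP2R1B and PPP2R5C, which also had passing probes that read higher in the sublines. PPP2R2D also holds, 13 bases before its start, the letters of a cell cycle genes homology region (TTTGAA, both strands), which 15.2% of promoters hold. Windows of PPP2R2C (starts 2 and 5) and PPP2R5A (start 2) hold these letters too. The windows of PPP2CA and PPP2R2D are shown for the response element they share, which stands in capitals, as does TTTGAA in PPP2R2D. A match of letters does not show that a factor binds.
PPP2CA start 2, chr5:134226024-134226323, minus strand: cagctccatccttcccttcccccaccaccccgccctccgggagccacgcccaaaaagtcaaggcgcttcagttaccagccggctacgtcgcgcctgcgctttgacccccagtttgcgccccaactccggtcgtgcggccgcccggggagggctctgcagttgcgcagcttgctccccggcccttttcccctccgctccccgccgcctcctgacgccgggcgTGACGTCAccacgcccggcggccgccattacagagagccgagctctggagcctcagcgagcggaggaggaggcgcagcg
PPP2R2D start 1, chr10:131900758-131901057, plus strand: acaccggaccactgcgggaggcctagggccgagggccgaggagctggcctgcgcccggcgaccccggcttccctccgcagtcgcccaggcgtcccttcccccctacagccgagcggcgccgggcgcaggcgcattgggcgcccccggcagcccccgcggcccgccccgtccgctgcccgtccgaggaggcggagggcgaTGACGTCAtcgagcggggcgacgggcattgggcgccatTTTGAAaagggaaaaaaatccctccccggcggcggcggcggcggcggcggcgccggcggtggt

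Of the B56 members, PPP2R5C had 1 passing probe of 3 and PPP2R5A none. PPP2R5A (B56 alpha, known for acting on MYC) read 8.10 in DasR, 7.94 in PazR and 7.99 in SunR, against 8.57, 8.45 and 8.21 in parental cells in dasatinib, pazopanib and sunitinib and 7.97 and 8.18 without drug. The sublines lay under all treated arrays, by 0.40 ± 0.17 (SE) on average, which did not pass (adjusted p = 0.21, limma). PPP2R5C (B56 gamma, known for acting on p53) was dim with all 3 probes, none of them above 7.03. One (ILMN_1780913) read 6.88, 6.95 and 6.91 in DasR, PazR and SunR, against 6.44, 6.70 and 6.56 in parental cells in the same drugs and 6.92 and 6.46 without drug, a difference of 0.34 ± 0.09 from treated cells (SE, adjusted p = 0.0402, limma). This call held only without parental cells in pazopanib (otherwise up to 0.169), and the untreated replicates differed by 0.47. The other probes gave -0.24 and 0.20 and did not pass, so the sign of the difference was not shared by all 3 probes.

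**Figure D3:**
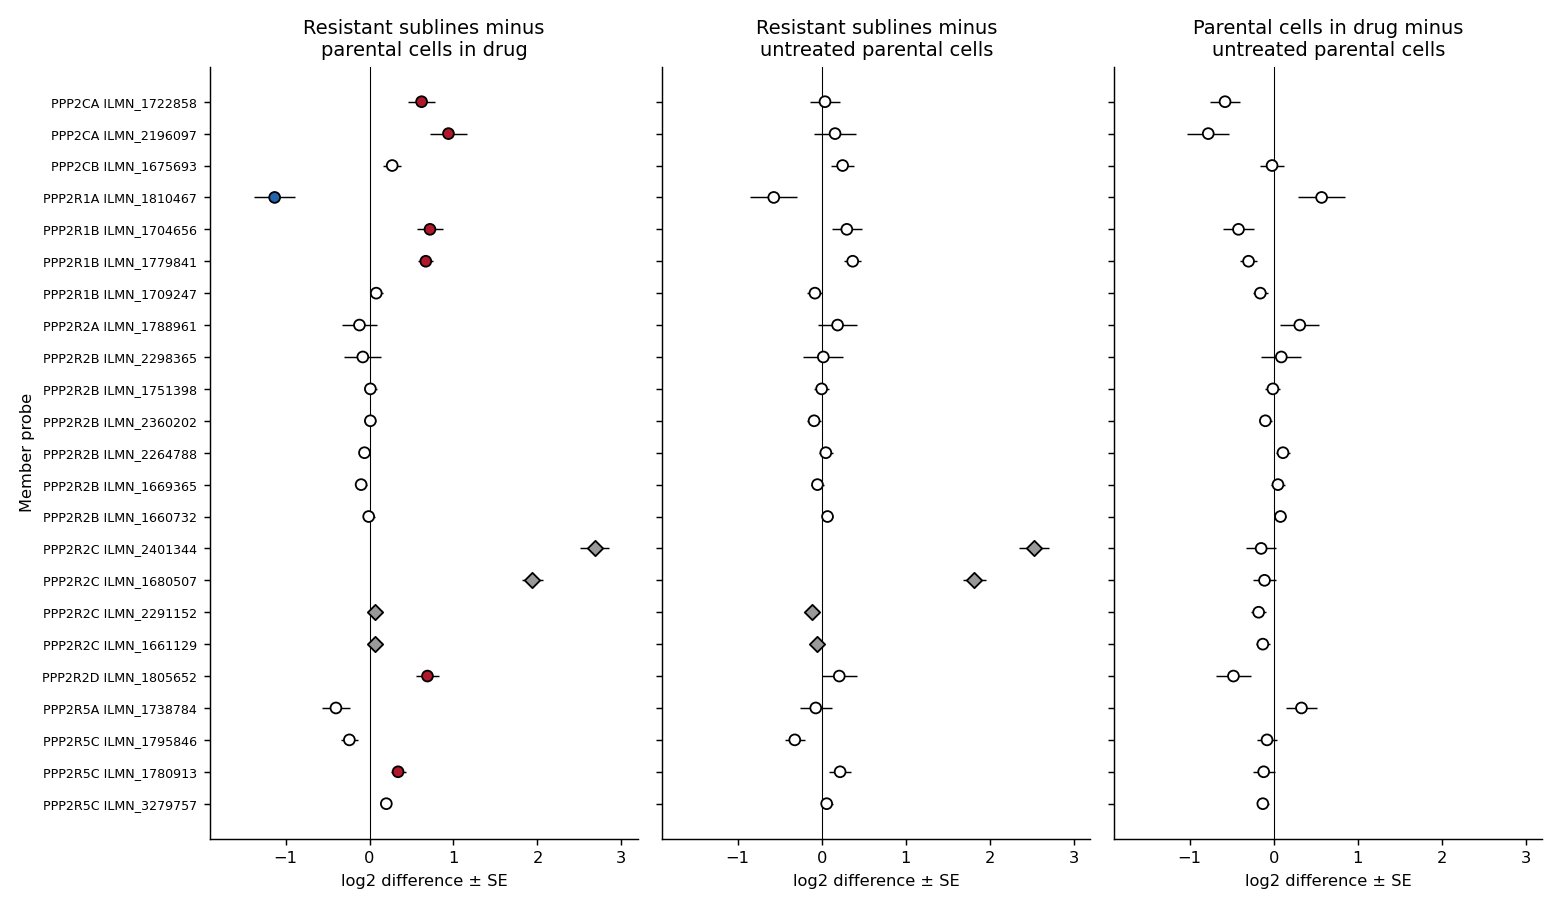
Differences (log2, horizontal axes, bars are SE) of the 23 member probes for resistant sublines minus treated parental cells, resistant sublines minus untreated parental cells and treated minus untreated parental cells. Red and blue points passed limma as higher and lower, white points did not pass and gray diamonds are the PPP2R2C probes, not tested against the sublines; the PPP2R2C probes at 2.68 and 1.94 lie beyond every other member in the first comparison, where all 7 passing probes are.

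Genes around the family were taken from lists of 9 other PP2A subunits, 13 PP2A modulators and 5 related catalytic subunits. Of the modulators, 4 of 26 probes from 3 genes (CIP2A, ENSA and MASTL) passed limma between sublines and treated parental cells and all were higher, with a median of 0.1 over the list. With 22 of the 26 probes brighter on average than the SMARCB1 range, this count is near the 14.7% of all such probes that passed. ENSA (endosulfine alpha), which inhibits B55 complexes once the Greatwall kinase MASTL has phosphorylated it, read 9.04, 8.62 and 8.63 in DasR, PazR and SunR with ILMN_1760779, against 7.91, 7.85 and 7.09 in parental cells in dasatinib, pazopanib and sunitinib. That is a difference of 1.14 ± 0.23 (SE, adjusted p = 0.017, limma), and no single left-out array ended the call (adjusted p up to 0.0496). Untreated parental cells were split here too, with 8.88 in replicate 1 and 7.60 in replicate 2. A second ENSA probe (ILMN_2364700) differed by 1.06 (adjusted p = 0.016, limma) and lost its call without parental cells in pazopanib (0.0764), and its untreated replicates differed by more (1.32).

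MASTL read 8.10, 7.91 and 7.77 in DasR, PazR and SunR with ILMN_2135984, against 7.35, 6.99 and 7.10 in parental cells in the same drugs and 8.24 and 7.72 without drug. Its difference from treated cells was 0.78 ± 0.14 (SE, adjusted p = 0.0101, limma), which was lost without parental cells in pazopanib (0.074), and a second probe gave 0.63 and did not pass (0.09). CIP2A, the cancerous inhibitor of PP2A, read 8.55, 8.09 and 7.86 in DasR, PazR and SunR with ILMN_1728225, against 6.97, 7.05 and 7.01 in parental cells in dasatinib, pazopanib and sunitinib. It differed by 1.15 ± 0.17 (SE, adjusted p = 0.00324, limma) and held without each array, while untreated cells gave 8.69 in replicate 1 and 7.55 in replicate 2. Treated parental cells stood near background for CIP2A, and the untreated replicates differed by about as much as the groups (1.14). A second CIP2A probe (ILMN_2099045) stayed at background, with a difference of -0.08 (adjusted p = 0.615, limma). ARPP19, the close relative of ENSA, did not pass with either probe (0.02 and -0.53), and SET, the brightest modulator that did not pass, differed by 0.05. Against untreated cells no modulator passed, with 0.05 for CIP2A, 0.53 for ENSA and -0.06 for MASTL with the probes above, and none had an unadjusted p under 0.05 in limma or in the methods' t-test.

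Of the other subunits, 4 of 18 probes passed between sublines and treated parental cells, 3 of them lower, where 6.04% of all probes passed. Of the 14 probes brighter on average than the SMARCB1 range 3 passed, where 14.7% of all such probes did. STRN4 (zinedin, a striatin that ties PP2A to the STRIPAK kinase complex) was lower with both probes, by 0.82 ± 0.18 and 0.46 ± 0.09 (SE, adjusted p = 0.021 and 0.0126, limma). The brighter one (ILMN_1696190) read 7.86, 7.58 and 7.71 in DasR, PazR and SunR, against 8.72, 8.62 and 8.27 in parental cells in dasatinib, pazopanib and sunitinib and 7.73 and 7.88 without drug, and untreated replicate 1 of the dimmer one (ILMN_2394102) stood 0.18 under replicate 2. PPP2R3B, of the B'' family, was lower by 0.80 ± 0.20 with ILMN_1712257 (adjusted p = 0.043, limma), about as much as the untreated replicates differed (8.02 in replicate 1 and 8.83 in replicate 2). Its relative PPP2R3C was higher by 0.80 ± 0.21 with ILMN_2214603 (adjusted p = 0.0484, limma), with untreated replicates of 9.30 and 9.01. Each of these 4 calls was lost without some single arrays, with adjusted p-values up to 0.199, and the second probes of PPP2R3B and PPP2R3C did not pass. The B56 gene PPP2R5E (0.79) was the brightest other subunit that did not pass (adjusted p = 0.0586, limma). The catalytic subunits PPP4C, PPP6C, PPP1CA, PPP1CB and PPP1CC of related phosphatases had no passing probe among 7 (3 had an unadjusted p under 0.05 in limma, and 2 in the methods' t-test, with 0 after adjustment), and the brightest of them, PPP1CC, differed by 0.43.

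**Figure D4:**
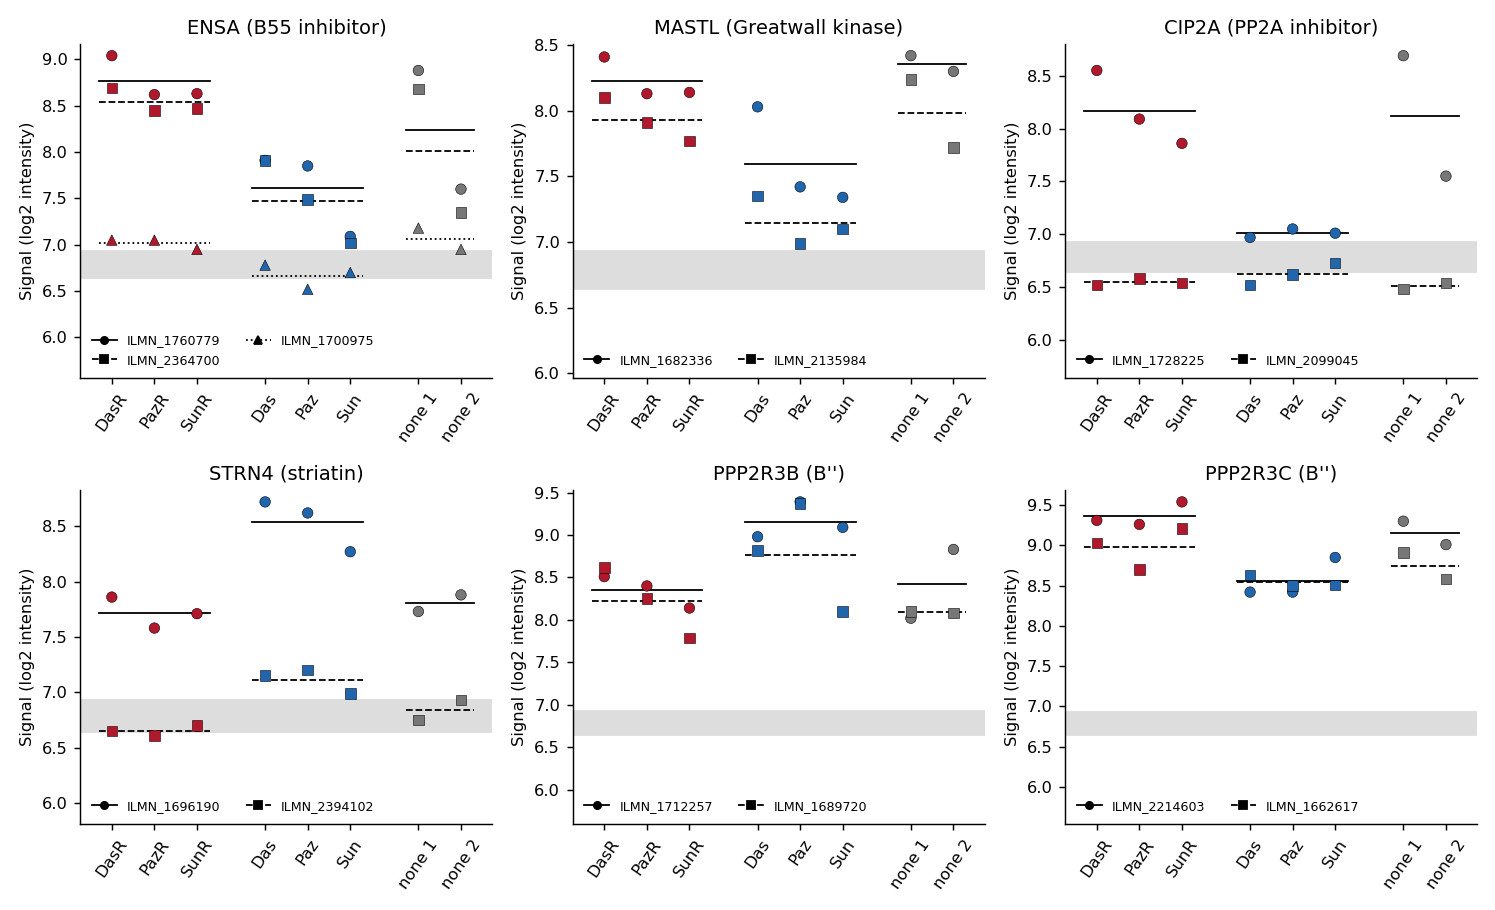
Signal (log2 intensity, vertical axes) of 3 PP2A modulators and 3 other subunits in each array, drawn as for the members, with resistant sublines in red, treated parental cells in blue and untreated parental cells in gray. The sublines read higher than treated parental cells for ENSA, MASTL and CIP2A with 1 or more probes and lower for STRN4. Untreated replicate 1 lies above replicate 2 for all 3 modulators with the probes that passed, and below it for the background probe of CIP2A (ILMN_2099045).

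The genes whose pattern over the 8 arrays was most like PPP2R2C were taken by Pearson correlation with its brightest probe, among 4805 probes with a symbol, a signal in the brighter 50% and a range over 1. Arrays of a group share their group, so these values are a description. HSPA12A, an atypical member of the HSP70 family, came first (r = 0.998), with 8.99, 8.70 and 9.13 in DasR, PazR and SunR, against 7.14, 6.93 and 7.10 in parental cells in the same drugs and 7.28 and 7.12 without drug. STAMBPL1 (a deubiquitinase, 0.991), SOX4 (a transcription factor, 0.99), SULF2 (an extracellular sulfatase that edits heparan sulfate, 0.987) and RGL1 (a Ral guanine nucleotide exchange factor, 0.987) followed. Each read higher in all 3 sublines than in all 5 parental arrays, and all lie on other chromosomes than PPP2R2C. The most negative were RGS17, a regulator of G protein signaling (-0.99), PLOD2, a collagen lysyl hydroxylase (-0.988), and RNF128, a ubiquitin ligase (-0.988). RGS17 read 7.76, 7.96 and 7.57 in DasR, PazR and SunR, against 11.0, 11.14 and 10.63 in parental cells in the same drugs and 10.72 and 10.34 without drug. With the second PPP2R2C probe 4 of the 5 and 2 of the 3 genes stayed in these lists, and with Spearman correlation none did.

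**Figure D5:**
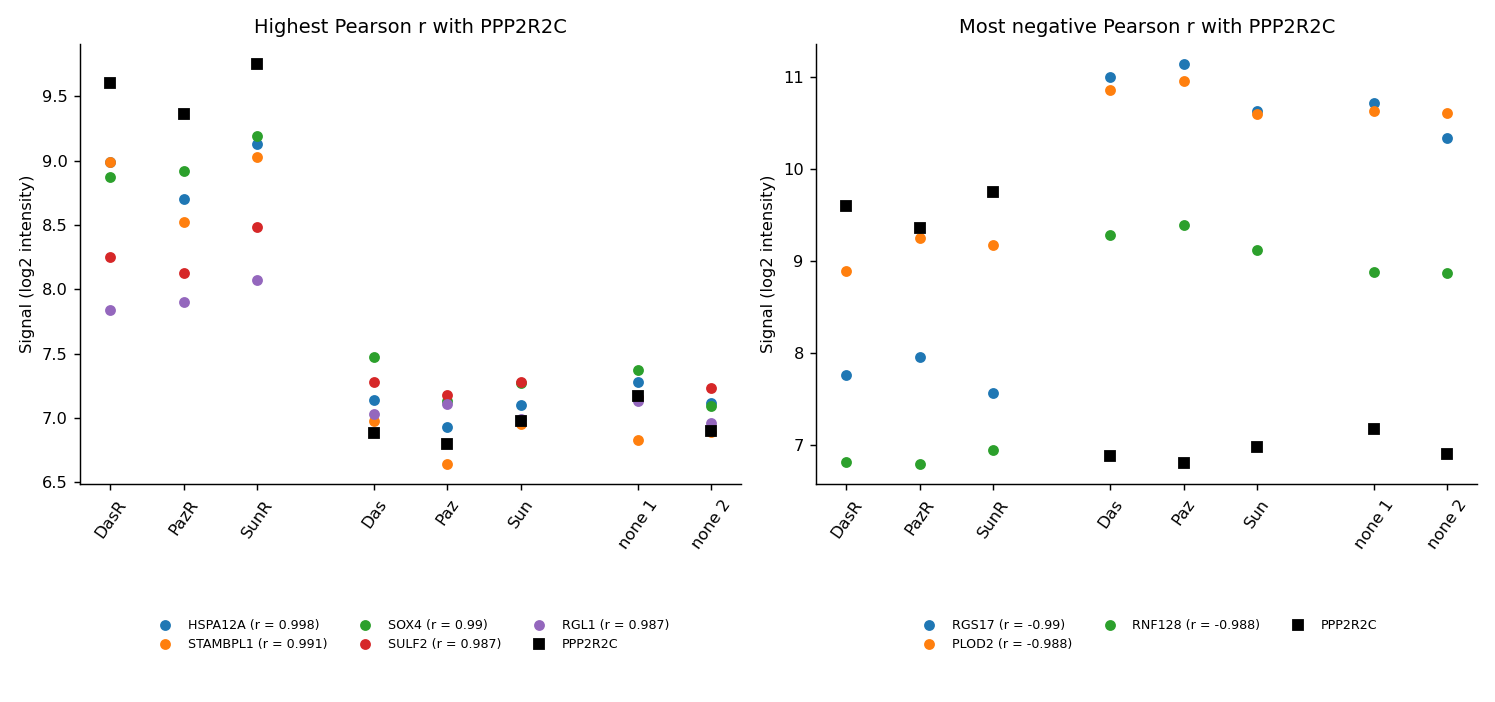
Signal (log2 intensity, vertical axes) in each array of the 5 genes with the highest and the 3 with the most negative Pearson correlation with PPP2R2C (black squares, ILMN_2401344), from resistant sublines to treated and untreated parental cells. The 5 most like genes read 7.84 to 9.19 in the sublines and 7.47 or less in parental cells, and RGS17 read 7.57 to 7.96 in the sublines, against 10.34 to 11.14 in parental cells.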

How the data were processed

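RNA of the 8 A204 samples was hybridized to Illumina HumanHT-12 v4 BeadChips, 1 array per sample. The deposited table holds log2 intensities, which the authors obtained with beadarray and normalized between arrays by quantiles. Background treatment is not given in the sources used here, and the sorted values of any 2 arrays differed by at most 0.00117. Probes were named through the platform's annotation, with symbols updated by Entrez identifier, giving 1 symbol for 30113 probes, several for 8 and none for 17986. Unnamed probes were kept in the tests.

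Each probe was fitted with limma 3.58.1 under R 4.3.3 (eBayes took an intensity trend). Adjusted p-values are those of Benjamini and Hochberg over the 48107 probes, called at 0.05. Resistant sublines and treated parental cells were compared in a fit of their 6 arrays, and untreated cells were set against either group in a fit of the 8 arrays as 3 groups. A plain t-test, called the methods' t-test, and Signal2Noise, the ranking that the study names for its arrays, were alternatives. PPP2R2C was not tested against the sublines. Tables and figures were made in Python 3.11.15 with pandas 2.3.3, and the fits were tested on simulated data with known changes.

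The sublines and the treated parental cells share drugs. Over all probes, deviations from group means correlated between arrays of the same drug (dasatinib 0.126, pazopanib 0.184, sunitinib 0.199), and at -0.162 to 0.051 between arrays of different drugs, so the drug was also entered as a block.

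The 10 members and the lists around them were chosen with earlier results of these data known. All probes of the members are reported. Of the lists of other subunits, modulators and related phosphatases the genes that passed and the brightest that did not are named. Genes most like PPP2R2C are the 5 of highest and the 3 of most negative Pearson correlation, and its neighbours are the 5 protein-coding genes on either side in RefSeq order. Promoter windows come from RefSeq (GRCh38.p14). Probe sequences and protein sequences were not used here.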

Additional observations from a re-analysis of the deposited data

Results flagged for a closer look

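For 2 catalytic subunits of related phosphatases the sublines moved in opposite directions from parental cells in the same drug, with 1 array on each side, so the difference between drugs was not tested. PPP4C, the catalytic subunit of protein phosphatase 4, stood 0.08 higher on the log2 scale in DasR and 0.48 higher in PazR, with -0.33 in SunR. PPP1CA, a catalytic subunit of protein phosphatase 1, differed by -0.86 in DasR and -0.84 in PazR and by 0.42 in SunR (ILMN_1695827). The signals of PPP1CA were close in the sublines, with 9.68 in DasR, 9.58 in PazR and 9.63 in SunR, against 10.54 in parental cells in dasatinib, 10.42 in pazopanib and 9.21 in sunitinib, and a second PPP1CA probe read lower in all 3 sublines than in parental cells in the same drug.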

How the results depend on the processing

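Between resistant sublines and treated parental cells, 2906 probes passed, 7 of the members and 8 of the other PP2A lists. With the drug as a replicate block the counts were 3713, 7 and 10, and the block ended no member call (adjusted p 0.00323 to 0.0374, limma). With 1 probe per gene 1436 probes passed and 4 of the members. The methods' t-test gave 8271 probes and 20 of the other lists before adjustment, and 39, 0 of the members and 0 of the other lists after it. Leaving out each array gave 1032 to 3890 probes, 1 to 6 members (1 without PazR, 3 without DasR, 2 without parental cells in dasatinib or pazopanib) and 2 to 11 of the other lists. The probe of PPP2R2C moved to 2.27 with 50 added to the linear intensity and ranged from 2.59 to 2.79 with an array left out. With all 8 arrays in the fit PPP2R2D (adjusted p = 0.0505, limma) and PPP2R5C (0.102) lost their calls. PPP2R5C also lost it without an intensity trend (0.066), and the brighter PPP2CA probe with 50 added (0.0507).

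Against untreated cells, 133 probes passed for the sublines, 58 without a trend, 67 with only these 2 groups in the fit and 35 to 446 with an array left out (262 without DasR, 446 without untreated replicate 1, 35 without replicate 2). The methods' t-test gave 2695 probes, 1 of the members and 3 of the other lists before adjustment and 0 probes after it. For treated parental cells 2 probes passed, 0 in the brighter 50% or without a trend and 0 to 580 with an array left out (580 without parental cells in sunitinib, 228 without untreated replicate 2), when 0 to 1 of the other lists passed. The methods' t-test gave 4463 probes, 6 of the members and 5 of the other lists before adjustment and 0 probes after it. The cause of these changes was not tested. No setting turned the direction of a called result. Signal over background also limits the family: 9 of the 23 member probes were at or under the SMARCB1 range in every array and 7 above it in every array.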

Other observations

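Of the 10 genes nearest to PPP2R2C on chromosome 4, 8 had a probe. With the brightest probe of each, WFS1 was the only one of the 8 to pass limma between sublines and treated parental cells. Of all probes 6.04% passed, and of those with a mean signal above the SMARCB1 range 14.7% did. WFS1, its nearest neighbour on one side, encodes wolframin of the endoplasmic reticulum. It read 10.54 in DasR, 10.45 in PazR and 10.73 in SunR, against 8.93 in parental cells in dasatinib, 8.71 in pazopanib and 9.36 in sunitinib, and 10.41 and 10.12 in untreated cells. The sublines were 1.58 ± 0.24 (SE) above treated parental cells (adjusted p = 0.00358, limma) and 0.31 above untreated cells (adjusted p = 0.85). S100P, a calcium-binding protein 4 genes away on the other side, read 10.22 in DasR, 10.71 in PazR and 11.41 in SunR, against 9.15, 9.22 and 10.95 in parental cells in the same drugs and 8.0 and 7.75 in untreated cells. All drug-exposed arrays were above both untreated arrays, and the sublines exceeded untreated cells by 2.91 ± 0.48 (SE, adjusted p = 0.0233, limma). Treated parental cells exceeded untreated cells by 1.90 ± 0.48, which did not pass (adjusted p = 0.157), nor did the 1.01 between sublines and treated parental cells (0.24). The remaining neighbours (CRMP1, JAKMIP1, MAN2B2, MRFAP1, MRFAP1L1 and MRFAP1L2) differed by -0.11 to 0.24 between sublines and treated parental cells with these probes, and none passed.

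The letters of the cAMP response element that windows of PPP2CA and PPP2R2D hold were also found in the MASTL promoter, 36 bases before its start, and not in the windows of CIP2A and ENSA. Promoters of the other listed genes were not examined, those of STRN4 and PPP2R3B, which read lower in the sublines, among them. A link between the element and the direction of a difference was therefore not tested.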
